A study of Homo sapiens with 8 samples.

Results

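The expressed intergenic long non-coding RNAs of MDA-MB-231 cells are described here across untreated cells and cells given a low or a high dose of a plant extract. They were chosen by their measured level: all genes with a symbol that starts with LINC and a mean log2 value of 3 or more over the 8 arrays. Of 615 LINC genes measured, 63 (10.2%) met this rule, against 46.4% of all 22109 genes measured. The choice used the mean over all 8 arrays, so the levels below are a description, while differences between groups of arrays were tested.

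Total RNA of MDA-MB-231, a human triple-negative breast cancer line from a pleural effusion, was measured on whole-transcript Affymetrix arrays after 24 h. There were 3 control arrays (untreated cells), 3 low-dose arrays and 2 high-dose arrays. Titles and protocol name an ethanol extract of wild yam root (Dioscorea villosa), at 15 µg/mL in the low group and 30 µg/mL in the high group. The source names of the same samples instead name an extract of Boswellia serrata (128 µg/mL) on the low group and, on the high group, 3-O-acetyl-β-boswellic acid (46 µg/mL). The arrays fall into the same groups either way, so "low" and "high" are used only as group names, and what the cells received is not settled by the labels. Control cells are labelled as not treated, and no ethanol control is named. All groups are 1 cell line, and the labels do not say that replicates were separate cultures, so p-values measure the spread between these samples, which may be partly technical.

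LINC symbols are given to long RNA genes that lie between coding genes and have no known protein product. Such RNAs are transcribed by RNA polymerase II, often spliced, and usually present at lower levels and in fewer tissues than mRNAs. Some act in the nucleus on chromatin or on neighbouring genes, others in the cytoplasm on mRNA or microRNAs, and for most of them no function is known. In breast cancer cells, several have been described as promoters or restrainers of growth and invasion.

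Defining markers of the line were present: mean log2 values were 8.89 for VIM, 8.37 for CD44 and 9.13 for AXL, although SPARC was at 2.12. The receptor genes ESR1 (1.86) and PGR (1.35) and the leukocyte genes PTPRC (1.13) and CD3E (1.33) were near the bottom of the scale, while the epithelial genes EPCAM (4.92) and KRT18 (4.48) were not. The 75th percentile of all genes ran from 4.54 to 4.94 across arrays, and within each group it was lowest on control 3, low 3 and high 2. The mean over the 63 LINC genes was lowest on those same arrays: 4.51, 4.48 and 4.25 in controls, 4.50, 4.48 and 4.26 at the low dose and 4.33 and 4.04 at the high dose. Counts after rescaling the arrays, weighting them or leaving them out are given below or in the closing section.

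The promoters of 4 of the genes are shown because LINC-PINT and LINC01116 changed in the tests below, LINC00842 had the most negative change at the high dose of any member that missed the threshold, and LINC03033, among the members with the highest log2 values, stands beside them as a promoter with few CG pairs. That of LINC02984, which also changed in the tests below, is not shown. The sequences are RefSeq's (GRCh38.p14), from 250 bases before to 50 after the gene start, 5′ to 3′ on the gene's strand, with each CG pair in capitals.
LINC-PINT: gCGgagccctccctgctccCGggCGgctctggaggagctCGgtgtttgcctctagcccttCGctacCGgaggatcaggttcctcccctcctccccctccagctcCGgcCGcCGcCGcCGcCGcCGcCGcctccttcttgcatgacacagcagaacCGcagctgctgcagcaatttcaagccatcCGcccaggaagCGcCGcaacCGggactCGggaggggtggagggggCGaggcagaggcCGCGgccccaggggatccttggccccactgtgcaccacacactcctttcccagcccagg
LINC01116: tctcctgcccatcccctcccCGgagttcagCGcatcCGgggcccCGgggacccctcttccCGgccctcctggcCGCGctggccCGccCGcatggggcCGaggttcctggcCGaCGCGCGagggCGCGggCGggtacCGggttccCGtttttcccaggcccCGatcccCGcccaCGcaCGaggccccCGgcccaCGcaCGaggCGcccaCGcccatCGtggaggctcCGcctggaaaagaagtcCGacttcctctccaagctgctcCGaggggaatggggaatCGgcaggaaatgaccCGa
LINC00842: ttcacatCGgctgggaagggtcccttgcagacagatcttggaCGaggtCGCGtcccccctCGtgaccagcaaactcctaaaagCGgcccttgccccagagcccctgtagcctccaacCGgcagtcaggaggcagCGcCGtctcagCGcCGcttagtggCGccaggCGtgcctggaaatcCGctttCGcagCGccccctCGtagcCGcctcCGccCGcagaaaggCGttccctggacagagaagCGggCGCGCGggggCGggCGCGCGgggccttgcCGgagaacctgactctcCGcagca
LINC03033: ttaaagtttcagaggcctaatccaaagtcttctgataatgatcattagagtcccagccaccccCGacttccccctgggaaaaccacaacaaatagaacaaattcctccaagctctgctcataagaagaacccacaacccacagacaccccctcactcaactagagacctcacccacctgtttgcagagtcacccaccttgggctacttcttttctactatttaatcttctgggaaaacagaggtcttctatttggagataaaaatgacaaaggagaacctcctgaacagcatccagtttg

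The LINC-PINT promoter (chr7:131109876-131110175, minus strand) holds 23 CG pairs. That of LINC01116 (chr2:176637560-176637859, minus strand) holds 34 and that of LINC00842 (chr10:46398112-46398411, plus strand) 31. The LINC03033 promoter (chr14:61570290-61570589, plus strand) holds 1 CG pair. LINC-PINT lies head to head with MKLN1, the gene of muskelin, a subunit of a ubiquitin ligase complex, and 268 bases of its 300-base window lie in the promoter window of MKLN1 on the opposite strand.

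Most of the expressed LINC genes lay low on the scale. Of the 63, 6 had a mean of 6 or more, 9 between 5 and 6, 13 between 4 and 5 and 35 between 3 and 4, with a median of 3.90 against 4.93 for the 10268 genes that reach a mean of 3. Probe sets differ in how strongly they bind, so these values do not rank the RNAs by abundance. On all 8 arrays 45 members stayed at 3 or more, and 11 members had at least 1 group mean under 3, 8 of them at the high dose. The residual SD between arrays of a group had a median of 0.32 for the members, against 0.25 for the genes with a mean of 3 or more.

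The highest means belonged to LINC01347 (8.17), LINC01000 (7.74), LINC03033 (7.33), LINC01061 (7.26), LINC-PINT (6.43), LINC02595 (6.41), LINC03009 (5.96), LINC02984 (5.90), LINC00472 (5.77) and LINC00863 (5.76). LINC01347, LINC01000 and LINC01061, together with LINC01002 (5.46), share rows of the platform annotation that name more than 1 of them, so near-identical copies may feed each other's signal and their values are uncertain. None of these 4 was called in any comparison. LINC00472, described elsewhere as a restrainer of breast tumour growth, had values of 6.06, 5.84 and 4.81 in controls, 6.11, 6.43 and 5.87 at the low dose and 5.90 and 5.12 at the high dose, and its groups overlapped.

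LINC00863 had the largest residual spread between arrays of 1 group among the members. Its values were 4.86, 5.46 and 6.33 in controls, 5.09, 5.22 and 6.88 at the low dose and 5.44 and 6.79 at the high dose. The 3 high values fell on control 3, low 3 and high 2, the arrays with the lowest 75th percentile of their group. It was the only member higher on these 3 arrays than on all the other 5, while 8 members were lower on the 3 than on the other 5. In each group the array concerned gave the highest value for 4 members (6.35%, against 0.691% of the genes with a mean of 3 or more) and the lowest for 24 (38.1%, against 44.9%).

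**Figure D1:**
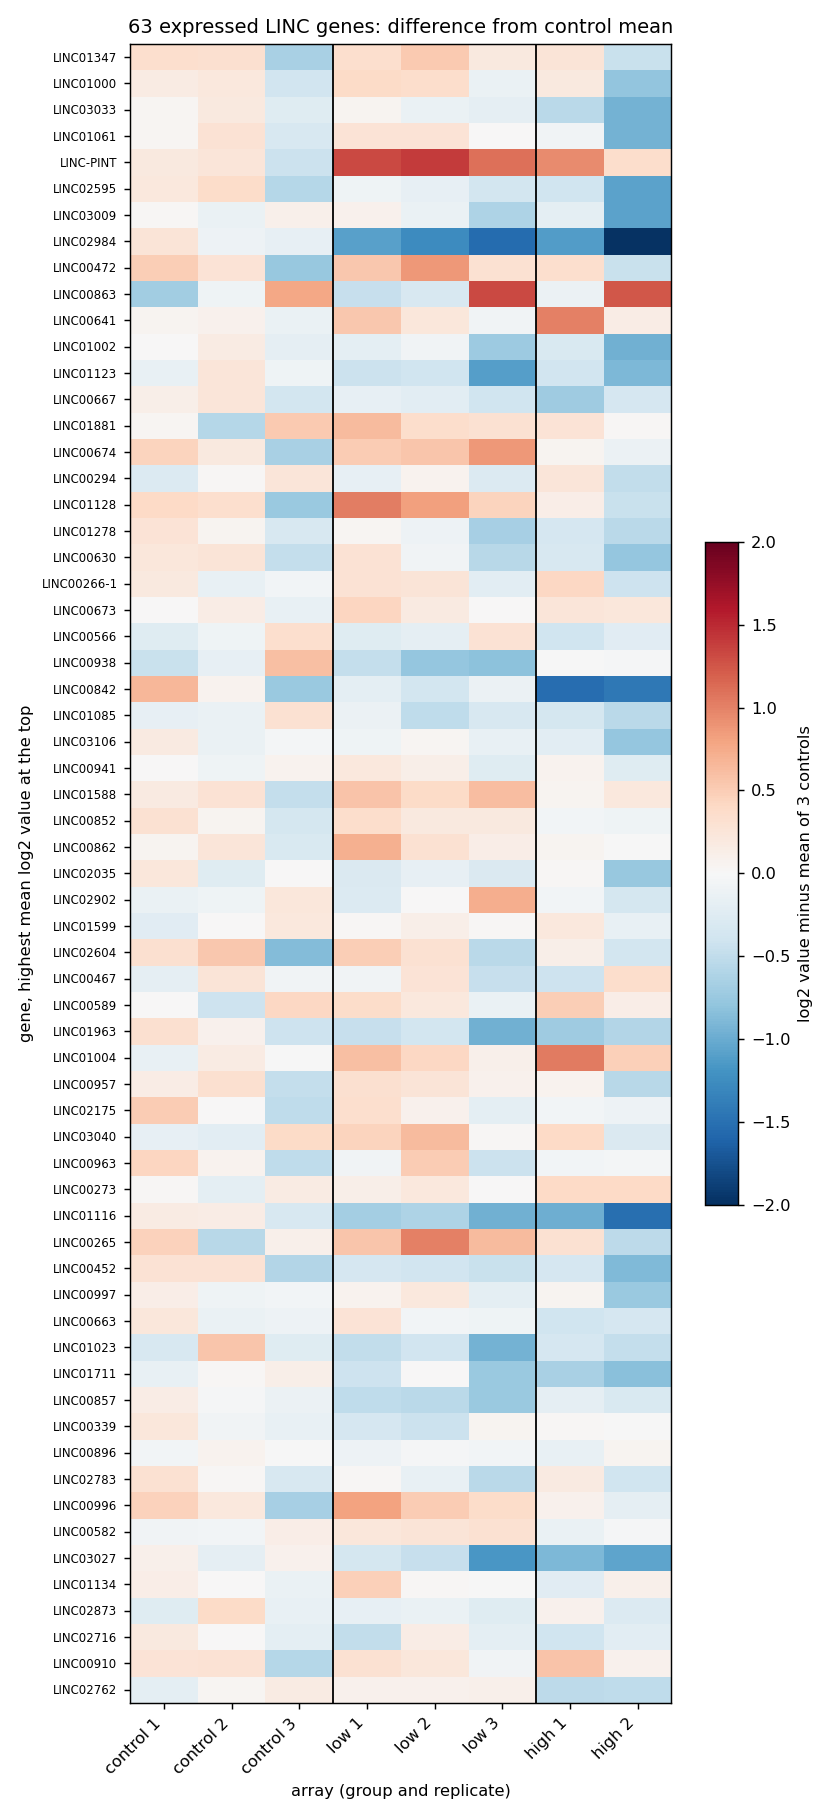
Each row is 1 of the 63 expressed LINC genes, ordered by mean log2 value from the highest at the top, and each column is 1 array; colour gives the log2 value minus the mean of the 3 controls, from blue (lower) to red (higher). LINC-PINT is red on all 3 low-dose arrays, LINC02984 and LINC01116 are blue on all 5 treated arrays, and LINC00863 is red on control 3, low 3 and high 2.

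At the low dose, LINC-PINT rose and LINC02984 fell relative to controls, and no other expressed LINC gene passed the test. LINC-PINT is a nuclear RNA known as a target of p53 and described in several tumour types as a restrainer of invasion. For LINC02984, a gene on chromosome 8, no role is given here. Low-dose LINC-PINT was 2.42-fold its control level, and low-dose LINC02984 was 0.409-fold. In RNA from whole flasks, fewer cells holding an RNA and less RNA per cell cannot be told apart.

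LINC-PINT had log2 values of 7.12, 7.20 and 6.89 in low-dose cells, against 5.99, 6.03 and 5.36 in control cells. Every low-dose array lay above every control array. The means were 7.07 ± 0.16 at the low dose and 5.79 ± 0.38 in controls (SD, n = 3 each), a log2 change of 1.27 ± 0.22 (SE) with an adjusted p of 0.0111 by limma over 22109 genes. LINC02984 had values of 5.69, 5.51 and 5.23 in low-dose cells, against 7.03, 6.68 and 6.60 in control cells, with no overlap. The means were 5.48 ± 0.23 at the low dose and 6.77 ± 0.23 in controls (SD, n = 3 each), a log2 change of -1.29 ± 0.23 (SE, limma adjusted p = 0.0123).

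These are 2 of 63 members (3.17%), against 3.0% of all genes and 6.08% of the genes with a mean of 3 or more. The share called was near that of all genes and under that of genes chosen by the same mean. By direction, 1 member was higher (1.59%, against 1.19% of all genes) and 1 lower (1.59%, against 1.81%). Of the genes with a mean of 3 or more, 2.42% were called higher and 3.66% lower. At an unadjusted p under 0.05 there were 13 members (20.6%, against 14.1% of all genes and 24.8% of those with a mean of 3 or more). Of these, 5 were higher (against 5.38% of all genes and 9.34% of those with a mean of 3 or more). The other 8 were lower (against 8.77% and 15.4%). All low-dose arrays lay above all controls for 6 members (7.03% of all genes did) and below them for 7 (13.0% of all genes did). Among genes with a mean of 3 or more these shares were 9.85% and 19.5%. The change was above 0 for 33 members (52.4%, against 42.6% of all genes), and the median change was 0.03 over the members, against -0.04 over all genes and -0.07 over the genes with a mean of 3 or more. The members' median turned to -0.02 without control 3, low 1 or low 2, each left out alone, and was 0.10 without low 3.

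The low-dose calls are close to the threshold. LINC-PINT was not called without low 1 (adjusted p = 0.0501) or without low 2 (adjusted p = 0.0600), with changes of 1.25 and 1.21, and LINC02984 was not called without control 1 (adjusted p = 0.0553), without low 2 (adjusted p = 0.0538) or without low 3 (adjusted p = 0.0541), with changes from -1.31 to -1.16; all p-values are limma's. A limma fit with the replicate number as a block was run as an alternative, although the labels state no pairing. It called 6 members, adding LINC01128 (higher) and LINC01963, LINC01116 and LINC00857 (lower), and 4.79% of all genes.

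Below the threshold, the members with the smallest p among the lower ones were LINC00857, LINC01116, LINC03027 and LINC00938. LINC00857, an RNA described as promoting growth in several carcinomas, had values of 3.03, 2.99 and 2.80 in low-dose cells, against 3.69, 3.51 and 3.41 in control cells. Its low-dose arrays all lay under the controls, but the change of -0.60 ± 0.15 (SE) missed the threshold (limma adjusted p = 0.0645). LINC01116 had values of 3.49, 3.55 and 3.21 in low-dose cells, against 4.34, 4.32 and 3.86 in control cells, also without overlap (change -0.76 ± 0.20, SE, limma adjusted p = 0.0735). LINC03027 (-0.67) and LINC00938 (-0.69) had adjusted p-values of 0.150 and 0.189 by limma, and were at -0.41 without low 3 and -0.39 without control 3.

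Among members with positive changes, LINC00265, LINC00674, LINC01588 and LINC01128 followed LINC-PINT, with changes of 0.73, 0.65, 0.53 and 0.76 and limma adjusted p-values from 0.246 to 0.258. LINC01128 had values of 5.53, 5.33 and 4.95 in low-dose cells, against 4.91, 4.85 and 3.77 in control cells. For all 4, every low-dose array lay above every control. Without control 3 the changes of LINC00674, LINC01588 and LINC01128 were 0.33, 0.29 and 0.39, and without control 2 that of LINC00265 was 0.45. LINC00265 has a second row on the array, at a mean of only 1.66, where the change was 0.07.

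**Figure D2:**
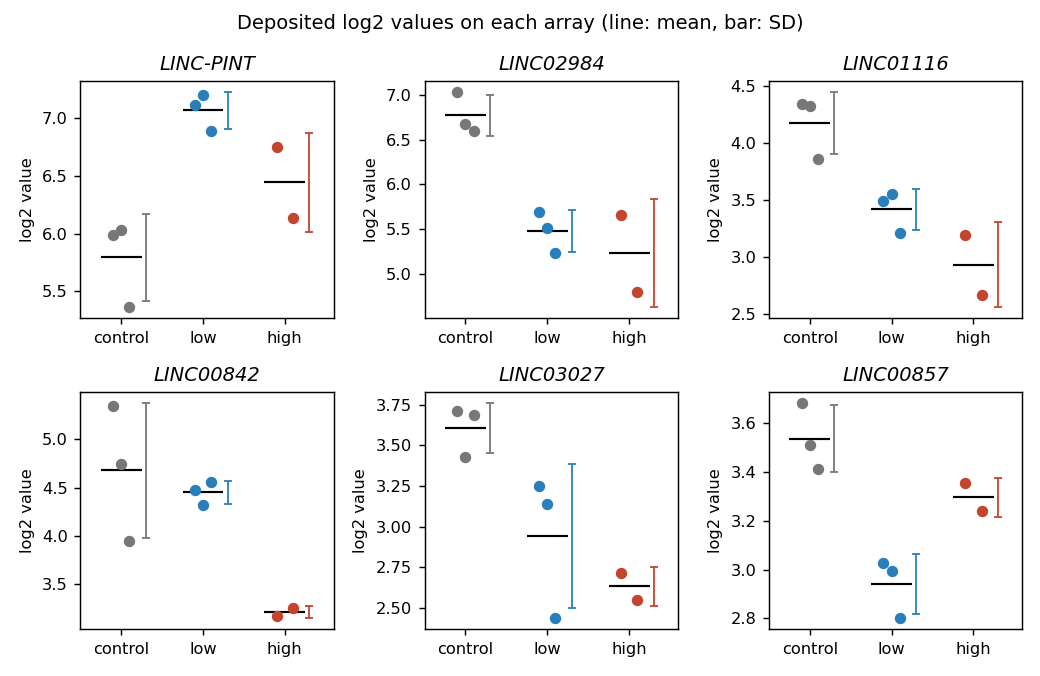
Deposited log2 values (vertical axes) of 6 expressed LINC genes on each array, in control, low-dose and high-dose cells (3, 3 and 2 points); black lines are group means and bars are 1 SD either side. LINC-PINT is highest at the low dose, LINC02984 and LINC01116 are under the controls at both doses, and LINC00842 stands at 3.16 and 3.25 at the high dose, under all arrays of the other groups.

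At the high dose, LINC02984 and LINC01116 fell relative to controls, and no member passed the test in the upward direction (0.425% of all genes did). LINC01116, transcribed from a region near the HOXD genes on chromosome 2, is described in several tumours as a promoter of proliferation and invasion. High-dose LINC02984 was 0.343-fold its control level and high-dose LINC01116 was 0.422-fold. LINC-PINT was above the controls on both arrays, without passing the test.

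LINC02984 had values of 5.65 and 4.80 in high-dose cells, against 7.03, 6.68 and 6.60 in control cells. Both high-dose arrays lay under all controls, and high 2 was the lowest array of all. The mean was 5.23 ± 0.60 at the high dose (SD, n = 2) and 6.77 ± 0.23 in controls (SD, n = 3), a log2 change of -1.54 ± 0.26 (SE) with a limma adjusted p of 0.0253. LINC01116 had values of 3.19 and 2.67 in high-dose cells, against 4.34, 4.32 and 3.86 in control cells, again with no overlap. Its mean was 2.93 ± 0.37 at the high dose (SD, n = 2) and 4.18 ± 0.27 in controls (SD, n = 3), a change of -1.24 ± 0.22 (SE, limma adjusted p = 0.0324).

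Both calls were in the downward direction: 2 of 63 members (3.17%). In that direction 0.389% of all genes and 0.75% of the genes with a mean of 3 or more were called. In either direction these shares were 0.814% and 1.59%. At an unadjusted p under 0.05 there were 19 members, 4 higher and 15 lower (30.2%, against 14.5% of all genes and 23.7% of those with a mean of 3 or more). The share of all genes was 3.03% for higher and 11.4% for lower, and that of genes with a mean of 3 or more was 4.54% and 19.2%. Both high-dose arrays lay under all controls for 18 members (28.6%), against 22.9% of all genes and 30.5% of the genes with a mean of 3 or more. They lay above all controls for 5 (7.07% of all genes did). The change was above 0 for 14 members (22.2%, against 32.6% of all genes and 25.5% of the genes with a mean of 3 or more). The median change was -0.12 over the members, against -0.12 over all genes and -0.22 over the genes with a mean of 3 or more, and after quantile normalization it was 0.02 over the members and -0.02 over all genes. The members' median was -0.36 without high 1, -0.34 without control 3 and -0.06 without high 2.

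With 2 high-dose arrays, these calls depended on single arrays. LINC02984 was not called without high 2 (change -1.12, adjusted p = 0.219), control 1 (0.109), control 2 (0.0728) or low 2 (0.0511), and LINC01116 was not called without high 1 (0.0904), high 2 (change -0.98, adjusted p = 0.287), control 1 (0.127), control 2 (0.118), low 1 (0.0654) or low 2 (0.0630), all adjusted p-values by limma. Without control 3, 6 members were called, all lower, and 4.48% of all genes were called (3.35% lower). After quantile normalization 5 members were called, 3 higher (LINC-PINT, LINC00641 and LINC01004) and 2 lower, against 0 higher and 2 lower in the values as deposited, and 2.08% of all genes were called (1.47% higher and 0.602% lower).

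LINC00842 had the next smallest p among the lower members. Its values were 3.16 and 3.25 in high-dose cells, against 5.35, 4.75 and 3.94 in control cells. The high-dose arrays were close together and below all controls, which were themselves spread over more than 1 log2 unit, and the change of -1.47 ± 0.32 (SE) had a limma adjusted p of 0.0657. Without control 3, the lowest control, the change was -1.84 with a limma adjusted p of 0.00133. LINC03027 (-0.98) and LINC03033 (-0.74) followed, with limma adjusted p-values of 0.0994 and 0.124. LINC03033 had values of 7.00 and 6.61 in high-dose cells, against 7.59, 7.74 and 7.31 in control cells, without overlap.

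In the upward direction the smallest p belonged to LINC01004, with values of 4.47 and 3.92 in high-dose cells, against 3.28, 3.60 and 3.43 in control cells. Both high-dose arrays lay above the controls, and the change was 0.76 ± 0.22 (SE, limma adjusted p = 0.155). LINC-PINT had values of 6.75 and 6.14 in high-dose cells, against 5.99, 6.03 and 5.36 in control cells, a change of 0.65 ± 0.25 (SE, limma adjusted p = 0.264). LINC00273 (0.40), LINC00641 (0.58) and LINC00673 (0.24) completed the set, with limma adjusted p-values of 0.316, 0.335 and 0.585. Without high 1, LINC-PINT was at 0.35, LINC01004 at 0.48 and LINC00641 at 0.15, and without high 2 LINC00641 was at 1.00. A second row of LINC00641, under the threshold at a mean of 2.77, differed by -0.31 between the same groups.

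**Figure D3:**
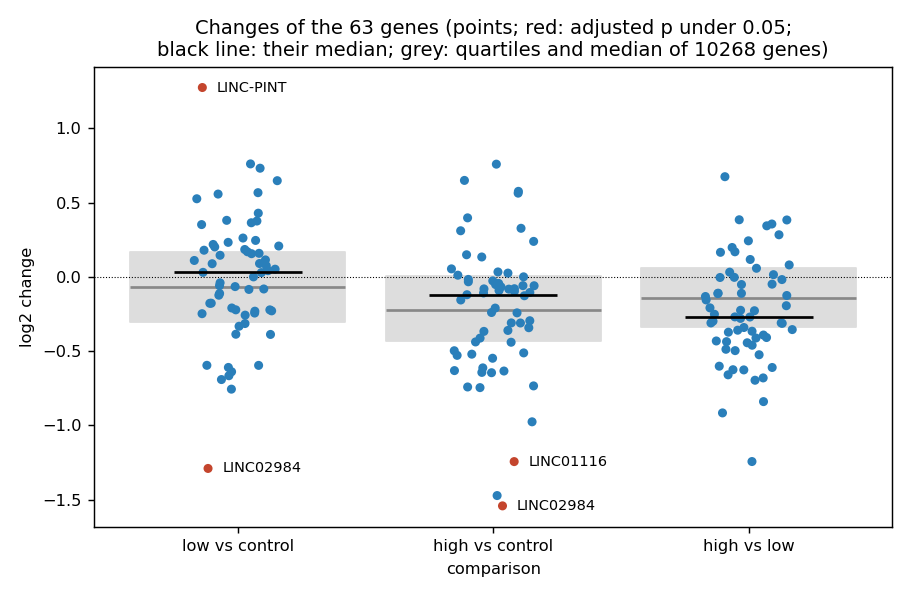
Each point is the log2 change of 1 of the 63 expressed LINC genes in the comparison named on the horizontal axis; red points passed an adjusted p under 0.05, black lines are the members' medians, and grey bands and lines are the quartiles and medians of the 10268 genes with a mean of 3 or more. The members' medians are 0.03, -0.12 and -0.27.

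Between the high and the low dose no expressed LINC gene was called by limma, against 0.00452% of all genes (1 gene, which is no member). At an unadjusted p under 0.05 there were 9 members, 1 higher and 8 lower (14.3%, against 8.66% of all genes and 12.8% of those with a mean of 3 or more). The share of all genes was 2.56% for higher and 6.1% for lower, and that of genes with a mean of 3 or more was 3.13% and 9.72%. Both high-dose arrays lay under all low-dose arrays for 19 members (30.2%, against 16.7% of all genes and 19.9% of the genes with a mean of 3 or more) and above them for 3 (8.77% of all genes did). The change was above 0 for 15 members (23.8%, against 38.4% of all genes and 31.8% of the genes with a mean of 3 or more). The median change over the members was -0.27, against -0.07 over all genes and -0.14 over the genes with a mean of 3 or more. After quantile normalization it was -0.13 over the members and -0.005 over all genes. With array medians subtracted these medians were -0.18 and 0.01. Without high 2 the members' median was -0.11.

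LINC00842 had the smallest p of these, with values of 3.16 and 3.25 in high-dose cells, against 4.48, 4.32 and 4.56 in low-dose cells. The groups did not overlap and each was narrow, and the change was -1.24 ± 0.32 (SE, limma adjusted p = 0.343). Without control 3, limma called LINC00842 at the same change (adjusted p = 0.0180), but 0.787% of all genes were then called as well. In the main fit that share was 0.00452%, so the gain in calls was not particular to LINC00842, and its cause was not tested. LINC02762 (-0.61), LINC03033 (-0.66), LINC01128 (-0.92) and LINC00265 (-0.84) followed, with limma adjusted p-values of 0.368, 0.398, 0.495 and 0.501. In the other direction LINC00938 was at 0.67 and LINC00857 at 0.36, with limma adjusted p-values of 0.530 and 0.585. LINC-PINT differed by -0.63 ± 0.25 (SE, limma adjusted p = 0.530), with high-dose values of 6.75 and 6.14 under the low-dose values of 7.12, 7.20 and 6.89. Without high 2, LINC-PINT was at -0.32 and LINC00265 at -0.43. That LINC-PINT was called at the low dose and not at the high dose therefore does not show a difference between doses.

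The order of the 3 groups differed between these genes. LINC-PINT averaged 5.79 in controls, 7.07 at the low dose and 6.44 at the high dose, so the low dose stood highest. LINC02984 averaged 6.77, 5.48 and 5.23 in the same order, and its dose groups overlapped. LINC01116 averaged 4.18, 3.42 and 2.93, with no overlap between any of the 3 groups and without a called difference between the doses. LINC00842 averaged 4.68, 4.45 and 3.21, with controls and low-dose arrays overlapping. LINC00857 averaged 3.54, 2.94 and 3.30, lowest at the low dose.

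Of a list of 30 LINC and related genes with described roles, 17 were measured and 9 had a mean of 3 or more. In the low-dose comparison 1 of the 17 was higher (LINC-PINT) and none lower (1.19% and 1.81% of all genes), and in the high-dose comparison 1 was lower (LINC01116) and none higher (0.389% and 0.425% of all genes). LINC00673, described in melanoma as a promoter of invasion, was narrow, at 4.84, 4.59 and 4.42 in low-dose cells and 4.66 and 4.64 in high-dose cells, against 4.41, 4.56 and 4.26 in control cells. LINC00941, described in several carcinomas in connection with metastasis, differed by 0.03 ± 0.17 at the low dose and -0.08 ± 0.19 at the high dose (SE). LINC00467 (-0.08 at the low dose and -0.03 at the high dose) and LINC00963 (-0.05 at the high dose) had limma adjusted p-values of 0.936 or more in both comparisons with controls. NORAD, which binds Pumilio proteins and was first named as a LINC gene, averaged 9.38 and differed by 0.08 ± 0.17 at the low dose and 0.19 ± 0.19 at the high dose (SE).

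By RefSeq's gene records, 62 of the 63 members could be placed, on 21 chromosomes. Chromosome 7 held 10 of them, out of 24 LINC genes measured there, and chromosome 1 held 8 out of 51. Only coding genes measured here were considered as neighbours. Such a gene overlapped 4 members, and the median gap to the nearest was 31.4 kb, against 58.4 kb for the LINC genes under the mean. A measured coding gene lay within 100 kb of 77.4% of the members, against 61.9% of the LINC genes under the mean.

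The nearest measured coding genes of the called members were not called. MKLN1, 0.169 kb from LINC-PINT, had values of 7.42, 7.36 and 7.18 in low-dose cells, against 7.02, 6.95 and 6.82 in control cells. Its low-dose arrays all lay above the controls, but the change of 0.39 ± 0.19 (SE) missed the threshold (limma adjusted p = 0.383), and at the high dose it was at -0.11. ATP6V1H, a subunit gene of the vacuolar proton pump 192 kb from LINC02984, differed by 0.07 at the low dose and 0.10 at the high dose. MTX2, which encodes a protein of mitochondrial import 273 kb from LINC01116, differed by -0.62 and -0.50 in the same comparisons, with limma adjusted p-values of 0.0999 and 0.279.

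The called neighbours belonged to members that were not called. At the low dose, RALA, a small GTPase gene 25.4 kb from LINC00265, rose by 1.07 ± 0.17 (SE, limma adjusted p = 0.00740). Its values were 6.23, 6.09 and 5.84 in low-dose cells, against 5.12, 5.10 and 4.72 in control cells, and LINC00265 itself was at 0.73. KPNA2, an importin gene 54.7 kb from LINC00674, fell by 0.74 on the log2 scale (limma adjusted p = 0.0250), while LINC00674 was at 0.65. At the high dose, GAS6, the ligand gene of the receptor AXL, fell by 1.04 on the log2 scale (limma adjusted p = 0.0337) beside LINC00452 at -0.61. ZNF267, a zinc-finger gene 2241 kb from LINC00273, rose by 1.54 (limma adjusted p = 0.0258). These 2 neighbours called in each comparison were 3.23% of 62, against 3.0% of all genes at the low dose and 0.814% at the high dose. Of the genes with a mean of 3 or more, 6.08% and 1.59% were called. Within 100 kb, 2 of 48 neighbours (4.17%) were called at the low dose and 1 of 48 (2.08%) at the high dose. With so few called, no excess near LINC genes is read from these shares.

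Over the 62 pairs, the LINC gene and its neighbour changed in the same direction in 34 at the low dose, 43 at the high dose and 36 between the doses. Within 100 kb the counts were 27, 34 and 28 of 48 pairs. At the high dose only 22.2% of the members and 32.6% of all genes changed above 0, so unrelated pairs would often agree as well. Between the doses these shares were 23.8% and 38.4%, and at the low dose 52.4% and 42.6%. Agreement among unrelated pairs was not counted, so no link between neighbours is read from these counts. Pearson's r across pairs was 0.09, 0.26 and 0.08, as a description, since the pairs share the same arrays and genes are not independent replicates.

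**Figure D4:**
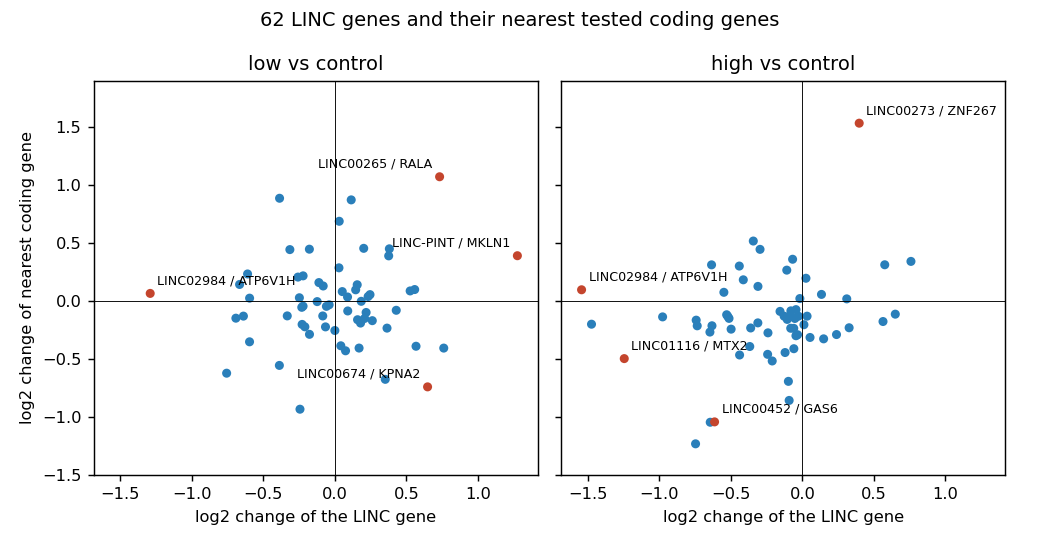
Each point is 1 of 62 expressed LINC genes, with its log2 change on the horizontal axis and that of its nearest measured coding gene on the vertical axis, for low-dose against control (left) and high-dose against control (right); red marks pairs in which either gene passed an adjusted p under 0.05. LINC-PINT lies at 1.27 and MKLN1 at 0.39 in the left panel, and LINC02984 lies left of zero in both panels with ATP6V1H near zero.

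Of the 63 members, 48 had an entry in RefSeq's promoter table. Their windows held a median of 9.5 CG pairs, against 5 in the 383 other LINC genes with an entry, 22 in 15843 coding genes and 13 over all 27305 promoters. The AP-1 motif TGANTCA, searched on both strands, was in 12.5% of the members' windows, against 12.0% of the other LINC genes and 7.72% of all promoters. The core TGACG of the cAMP response element was in 12 of 48 members' windows, against 77 of 383 and 6817 of 27305. The CHR letters TTTGAA, known from cell cycle promoters, were in 6.25%, against 20.6% and 15.5%. The E-box CACGTG (6.25%, against 6.27% and 7.41%) and the TATA box TATAAA (10.4%, against 16.4% and 12.0%) were also searched. Each motif was counted alone, so matches of different motifs may overlap, and none of the 5 was in the 4 promoters printed above.

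Just inside the threshold on the mean lay LINC02762 (3.01), LINC00910 (3.01) and LINC02716 (3.07), and just outside it LINC02012 (2.97), LINC02983 (2.96) and LINC02139 (2.93). Of the 552 LINC genes under the mean, 1 was called at the low dose and 1 at the high dose (0.181% each, against 3.0% and 0.814% of all genes) and none between the doses. These shares of all genes are no matched background. Most called genes had a mean of 3 or more: 624 of 664 at the low dose and 163 of 180 at the high dose. LINC01013 fell by 0.76 on the log2 scale at the low dose (limma adjusted p = 0.0326), with values of 1.18, 1.27 and 1.01 in low-dose cells, against 1.94, 1.70 and 2.08 in control cells. LINC00839 fell by 0.94 at the high dose (limma adjusted p = 0.0406), with values of 1.91 and 2.28 in high-dose cells, against 2.99, 3.11 and 3.02 in control cells. In both genes the groups did not overlap. No background was measured here, and signal at such low values could not be told from it.

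Long non-coding RNAs named otherwise give a frame for these changes. Of 63 such genes listed, 43 were measured and 30 had a mean of 3 or more. At the low dose LUCAT1, a stress-inducible RNA, rose by 1.15 ± 0.23 (SE, limma adjusted p = 0.0232), while TMPO-AS1 and SNHG1, a host gene of small nucleolar RNAs, fell by 1.16 and 0.95 on the log2 scale (limma adjusted p = 0.00255 and 0.0251). At the high dose TMPO-AS1 fell by 0.98 (limma adjusted p = 0.0215), and no other listed gene was called. TMPO-AS1 is named as antisense to a coding gene, and the sources used here do not say how the probes treat strand. MALAT1, an abundant nuclear RNA, differed by 0.35 ± 0.16 at the low dose and -0.02 ± 0.18 at the high dose (SE).

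**Figure D5:**
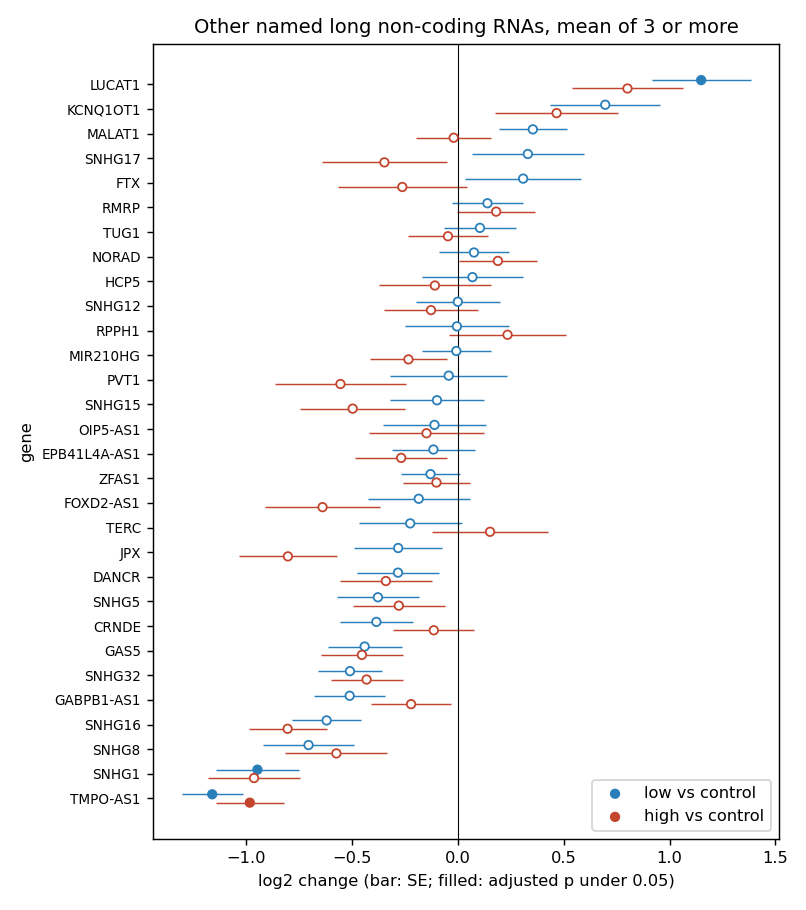
Log2 change (horizontal axis, bars 1 SE) of 30 other named long non-coding RNAs with a mean of 3 or more, for low-dose (blue) and high-dose (red) against control; filled points passed an adjusted p under 0.05. LUCAT1 (1.15 at the low dose) and TMPO-AS1 (-1.16 at the low dose and -0.98 at the high dose) stand at the ends.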

How the data were processed

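The authors' deposited table holds log2 expression values of 53617 probe sets on 8 arrays, 1 array per sample; per the submitters' processing notes it comes from the Transcriptome Analysis Console, whose version, and any normalization, is not given in the sources used here. Base 2 was inferred from the range (highest 12.10), and no background measure was used. Probe sets were named by the platform annotation: 23558 had 1 symbol, 2155 had several and 27904 were unnamed here. Symbols were updated through RefSeq (3 changed), and the row with the highest mean was kept per gene, which left 22109 genes. Groups were taken from the titles.

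limma 3.58.1 (R 4.3.3) fitted a mean for each group to the 8 arrays (lmFit, contrasts, eBayes; 5 residual and 6.0 prior degrees of freedom), after a test on simulated data, and p-values were adjusted by Benjamini-Hochberg over 22109 genes, with calls under 0.05. Deviations of same-numbered control and low arrays correlated across genes at 0.10, 0.15 and 0.20. This does not show pairing, since control 1 correlated more highly with low 2 (0.12) than with low 1. The unlike-numbered low 3 and high 2 correlated at 0.27, above every same-numbered pair. The labels state no pairing, so the main fit had none and the replicate block was only an alternative. Same-numbered pairs with high arrays ran from -0.18 to 0.21. The number of arrays limits the precision.

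Members and lists were chosen with earlier results of these data known. Named were the called members, the smallest p-values where under 5 were called in a direction, the 10 highest means, those next to the threshold, listed genes and nearest coding neighbours. Alternatives were quantile normalization, subtracted medians, other gene sets, a replicate block, array weights, trend, left-out arrays and other thresholds on the mean.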

Additional observations from a re-analysis of the deposited data

Results flagged for a closer look

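Rows in which the annotation repeats 1 symbol stood outside the comparisons, and they hold 4 more LINC genes with a mean of 3 or more. One of them, LINC00243, showed a signal above the controls in 1 unused row, that with the highest mean of the gene's 6 rows. The change at the low dose was 1.11 ± 0.26 (SE, limma adjusted p = 0.0493), close to the threshold. Values were 4.94, 4.46 and 4.72 in low-dose cells, against 3.46, 4.24 and 3.10 in control cells. At the high dose LINC00243 was at 1.31 ± 0.29 (SE, limma adjusted p = 0.0750), with values of 4.77 and 5.06. All 5 treated arrays lay above all controls. Values of the gene's other rows are not given here, and the signal was not assigned to 1 locus.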

How the results depend on the processing

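The 4 called changes kept their direction under all 18 alternatives each, and the calls were lost in 3 (LINC-PINT, low dose), 4 (LINC02984, low dose), 6 (LINC02984, high dose) and 8 (LINC01116, high dose) of them; the causes were not tested. Percentages in the counts that follow are the shares of all genes called in the same fit. At the low dose, against 2 called members (3.0%), limma called 4 after quantile normalization (5.35%) and 4 with array medians subtracted (3.94%). It called 6 with the replicate block (4.79%), 8 with array weights (9.29%) and 0 when all deposited rows were fitted and tested. With 1 control or low-dose array left out it called 0 to 3. At the high dose, against 2 (0.814%), limma called 5 after quantile normalization (2.08%), 7 with the replicate block (5.55%) and 8 with array weights (4.54%). The count was 0 over all deposited rows, 0 with only the arrays of the 2 groups and 1 among members with a mean of 4 or more. With 1 control or low-dose array left out it was 0 to 6. Between the doses, against 0 (0.00452%), limma called 1 with the replicate block (LINC01128, 0.991%) and 1 with only the arrays of the 2 groups (LINC00842). With 1 control or low-dose array left out it called 0 to 1. Where no percentage stands beside a count, the share of all genes is not given here. Leaving out control 3, low 3 and high 2 together, an alternative chosen after seeing the data, gave 7 at the low dose and 11 at the high dose. That fit kept only 1 high-dose array and has no share of all genes beside it, so its counts are not read as a response of LINC genes. Without control 3 alone, the share of all genes called at the high dose was 4.48%, against 0.814% in the main fit. Samples of different groups share only a number by the labels, so block values are no paired result. Between the doses, with 1 array left out, LINC00641 ranged from -0.0817 (without high 1, reversed) to 0.769 and LINC02984 from -0.679 to 0.175 (without high 2, reversed); without the 3 arrays LINC02984 was at 0.0516, also reversed. The members' median change at the high dose moved beyond the spread in 5 of 18 alternatives and between the doses in 2 of 18. The low end of the scale has no measured background, and 8 arrays limit what can be called.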
